A study of Mus musculus with 10 samples.

Results

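The 7 genes described here encode the serine proteases of the neutrophil's primary (azurophil) granule and the proteins they work with. Elane is neutrophil elastase, Prtn3 is proteinase 3 and Ctsg is cathepsin G. Mpo is the granule's peroxidase, Ctsc is the peptidase that activates the proteases, Serpinb1a is a cytosolic inhibitor of them and Srgn (serglycin) is the proteoglycan that holds them in the granule. Their probes were found by gene symbol in the array platform's annotation, and each gene was read by 1 probe. The genes were chosen with earlier results of these data known. They are 7 of the 20243 features tested, where a feature is a gene symbol with its probes averaged or a probe without a single symbol.

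All RNA came from FDB1, a mouse myeloid progenitor line that grows in IL-3, carrying either the FI-Delta receptor mutant or FI-Delta with the further change Y577F, a tyrosine replaced by phenylalanine. FI-Delta is a form of the shared beta chain of the GM-CSF and IL-3 receptors that signals without its ligand. Cells were taken at 0 h, while growing in IL-3, and after 72 h in medium without factor. Of the 10 two-colour arrays, 3 set FI-Delta cells at 72 h against 0 h, 2 did so for Y577F cells, 3 set Y577F against FI-Delta cells at 0 h and 2 at 72 h. Time and the loss of IL-3 cannot be told apart, because both lines were without it at 72 h. FDB1 cells without a mutant receptor were not analysed here, and whether a line was 1 clone is not given in the sources used here. An array value is a log2 ratio, turned by the titles so that it reads 72 h over 0 h or Y577F over FI-Delta. The log base and the direction are the likely ones, from the convention of limma, which the submitters' processing notes name. If the deposited ratios ran the other way, every direction below would turn together. A ratio gives no level, so the markers of the cell type could be checked only for change, not for presence.

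Each fitted change below comes with its standard error (SE) from 1 limma model over all arrays, in which the 2 dye-swapped arrays of the same FI-Delta RNA were averaged, leaving 9 hybridisations. A gene is called at an adjusted p (limma, Benjamini-Hochberg over all 20243 features) under 0.05. The design gives 2 biological replicates for each line, so several arrays share an RNA extract. A second model gave each extract its own coefficient and had no dye term. It is called the replicate block here, and the pairing of extracts in it was read from the order of the titles. The block fits more coefficients to the same 9 hybridisations, which leaves fewer residual degrees of freedom than the first model. Its error does not measure the spread between cultures. Whether a call lost under the block reflects the fewer degrees of freedom or a difference between cultures was not tested. Across all features, repeat arrays of 1 comparison correlated at 0.63 for the Y577F time change, 0.519 for the lines at 72 h, 0.236 to 0.539 for the FI-Delta time change and -0.0374 to 0.357 for the lines at 0 h. The lowest of the FI-Delta values, 0.236, was that of the dye swap, which used the same RNA on both arrays.

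Primary granule proteins are made early in neutrophil development, at the promyelocyte stage, and are stored for later release or for killing microbes inside the cell. The serine proteases are made as inactive precursors, and Ctsc removes a short N-terminal peptide to activate them. Serpinb1a then traps protease that escapes into the cytosol, and the negatively charged sugar chains of Srgn bind the basic proteases inside the granule. Factors of the Myb, PU.1, Runx and C/EBP families are known regulators of these genes.

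Elane and Prtn3 lie next to each other on chromosome 10, and their changes across the arrays were alike, as were those of Ctsg and Mpo. The 250 bases before the start of those 4 genes are printed here from RefSeq (build GRCm38.p6) beside those of Ctsc, which rose in Y577F cells, where the other 4 fell. They are chr10:79886062-79886311 (plus strand) for Elane, chr10:79879417-79879666 (plus) for Prtn3, chr14:56102575-56102824 (minus) for Ctsg, chr11:87793534-87793783 (plus) for Mpo and chr7:88277835-88278084 (plus) for Ctsc. Capitals mark matches, on either strand, to AACNG (Myb), GAGGAA (PU.1), TGTGGT (Runx) and TTNNGNAA (C/EBP), and a match is a description of letters, not a binding site.
Elane: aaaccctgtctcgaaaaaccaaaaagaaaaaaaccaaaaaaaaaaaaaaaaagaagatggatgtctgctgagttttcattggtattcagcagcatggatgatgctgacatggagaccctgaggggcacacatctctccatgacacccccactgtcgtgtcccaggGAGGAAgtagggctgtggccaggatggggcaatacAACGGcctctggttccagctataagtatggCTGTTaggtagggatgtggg
Prtn3: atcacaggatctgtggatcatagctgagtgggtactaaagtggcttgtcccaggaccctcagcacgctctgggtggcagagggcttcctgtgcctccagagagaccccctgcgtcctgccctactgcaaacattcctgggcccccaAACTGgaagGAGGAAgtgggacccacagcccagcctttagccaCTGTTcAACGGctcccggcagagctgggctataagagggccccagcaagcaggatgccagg
Ctsg: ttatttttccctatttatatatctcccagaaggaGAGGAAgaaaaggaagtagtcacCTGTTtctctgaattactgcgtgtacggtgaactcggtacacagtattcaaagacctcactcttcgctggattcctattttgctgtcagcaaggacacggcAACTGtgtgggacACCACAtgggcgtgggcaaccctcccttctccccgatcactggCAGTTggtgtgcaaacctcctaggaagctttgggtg
Mpo: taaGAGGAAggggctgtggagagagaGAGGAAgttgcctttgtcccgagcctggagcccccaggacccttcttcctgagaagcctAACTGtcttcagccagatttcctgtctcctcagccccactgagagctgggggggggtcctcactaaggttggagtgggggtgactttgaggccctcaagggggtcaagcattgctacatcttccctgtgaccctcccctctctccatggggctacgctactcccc
Ctsc: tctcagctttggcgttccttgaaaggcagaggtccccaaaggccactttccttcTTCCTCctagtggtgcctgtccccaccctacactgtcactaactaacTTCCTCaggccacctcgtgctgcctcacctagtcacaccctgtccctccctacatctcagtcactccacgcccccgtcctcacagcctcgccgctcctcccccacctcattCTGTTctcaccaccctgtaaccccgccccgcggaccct
Myb letters were in the windows of all 6 genes that the reference table holds, but 74.2% of the 32851 windows of that length hold them. PU.1 letters were in 5 of the 6, against 23.3% of windows. Srgn has 2 starts in the table and the other 5 genes 1 each. At the first start Runx letters were in 1 of the 6 against 14.0% and C/EBP letters in 0 of the 6 against 36.8%, and the second window of Srgn held both. A longer run noticed only after the sequences were seen, GAGGAAGT, was in the windows of Elane, Prtn3, Mpo and Ctsc and in 2.44% of all windows.

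The proteases and Mpo were lower in Y577F than in FI-Delta cells at both times, and the gap was wider at 72 h. In FI-Delta cells limma called 5 of the 7 genes over 72 h (8.16% of all features were called, 5.19% higher and 2.97% lower): Elane, Prtn3, Ctsc and Serpinb1a rose and Srgn fell. In Y577F cells it called 7 of 7 (18.0% of features, 9.28% higher and 8.75% lower): Ctsc rose and the other 6 fell. Between the lines at 0 h it called 4 of 7 (1.42% of features, 0.934% higher and 0.484% lower), Elane, Prtn3, Ctsg and Mpo, each lower in Y577F. At 72 h it called 6 of 7 (12.9% of features, 6.44% higher and 6.45% lower), those 4 and Serpinb1a lower in Y577F and Ctsc higher. In RNA from whole cultures, fewer cells of a type and less RNA per cell cannot be told apart.

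**Figure D1:**
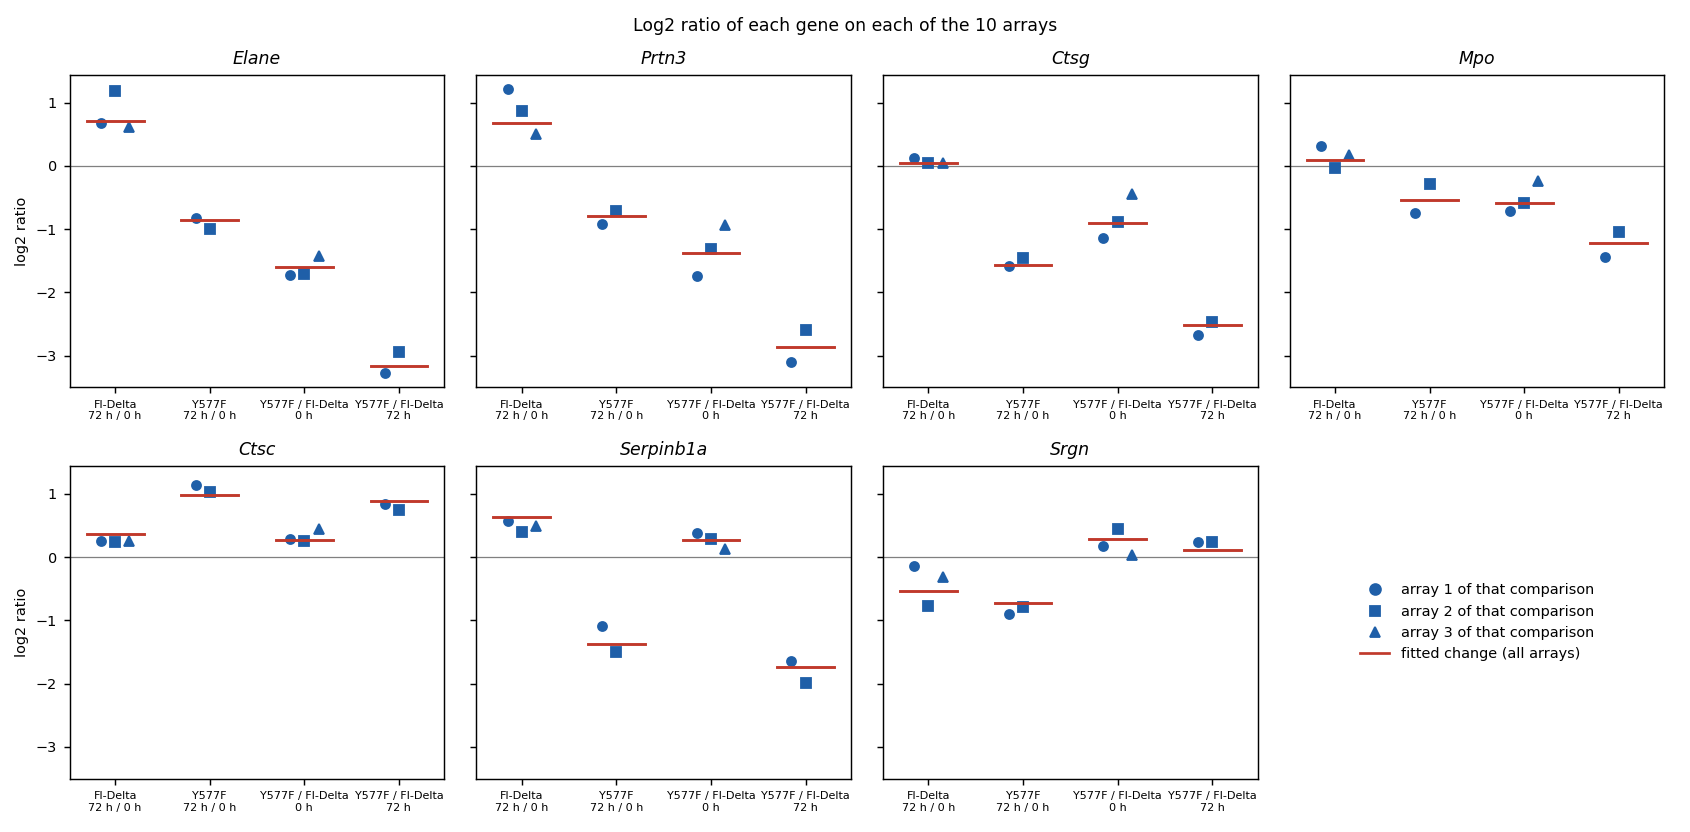
Log2 ratio (vertical axis) of each of the 7 genes on each of the 10 arrays, grouped by what the array compares, with 1 point per array and a red line at the change fitted over all arrays. Elane runs from 1.19 on an FI-Delta time array to -3.27 on a 72 h array, while the points of Srgn all lie between -0.90 and 0.44.

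Elane had the largest fitted differences between the lines of the 7 genes. Over 72 h its log2 ratios in FI-Delta cells were 0.68 and 1.19 on the dye-swapped pair and 0.61 on the array of the other culture. In Y577F cells they were -0.82 and -0.99. All arrays of FI-Delta cells were thus above 0 and both of Y577F cells below it. Elane rose by 0.71 ± 0.11 in FI-Delta cells, 1.63-fold (adjusted p = 0.00206, limma), and changed by -0.85 ± 0.11 in Y577F cells, 1.81-fold lower (adjusted p = 0.000179). Y577F over FI-Delta read -1.73, -1.70 and -1.43 at 0 h and -3.27 and -2.94 at 72 h, so the arrays of each time lay close together and the times did not overlap. The fitted differences were -1.60 ± 0.10 at 0 h, 3.03-fold lower in Y577F (adjusted p = 2.42e-05), and -3.16 ± 0.11 at 72 h, 8.93-fold lower (adjusted p = 2.16e-08). By size they were the fourth and the ninth of all features in their comparisons. The rise in FI-Delta cells was not called (0.56, adjusted p = 0.0766) when the arrays were scaled to the same spread.

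Prtn3, which cleaves many of the same substrates as elastase, followed Elane with slightly smaller fitted changes. Its ratios over 72 h were 1.22, 0.87 and 0.51 in FI-Delta cells, all above 0, and -0.91 and -0.71 in Y577F cells, both below 0. It rose by 0.68 ± 0.14 in FI-Delta cells (adjusted p = 0.0106, limma) and changed by -0.80 ± 0.13 in Y577F cells (adjusted p = 0.00138). Between the lines the ratios were -1.74, -1.32 and -0.94 at 0 h and -3.10 and -2.59 at 72 h. All 5 arrays read lower in Y577F, with a wider spread at 0 h than Elane showed. The fitted differences were -1.38 ± 0.12 at 0 h, 2.60-fold (adjusted p = 0.000204), and -2.86 ± 0.13 at 72 h, 7.24-fold (adjusted p = 1.53e-07). The rise in FI-Delta cells was not called with arrays scaled to the same spread (0.56, adjusted p = 0.0874) or from the direct arrays alone without a dye term (0.78, adjusted p = 0.0539).

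Ctsg, a chymotrypsin-like protease whose gene lies among mast cell and lymphocyte protease genes on chromosome 14, was not called in FI-Delta cells. There its 72 h over 0 h ratios were 0.12, 0.05 and 0.04, all near 0, and the fitted change was 0.05 ± 0.11 with a 95% interval from -0.19 to 0.28 (adjusted p = 0.878, limma). In Y577F cells the ratios were -1.59 and -1.46, and the fitted fall was the largest of the 7 genes, -1.57 ± 0.10 or 2.98-fold (adjusted p = 1.73e-06). Y577F over FI-Delta was -1.14, -0.88 and -0.44 at 0 h and -2.67 and -2.46 at 72 h. The array of cultures 2 and 4 gave the smallest difference at 0 h, as it did for Elane, Prtn3 and Mpo. Fitted differences were -0.90 ± 0.09 at 0 h, 1.86-fold (adjusted p = 0.000679), and -2.52 ± 0.10 at 72 h, 5.73-fold (adjusted p = 7.19e-08). The replicate block ended the call at 0 h (-0.84, adjusted p = 0.124).

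Mpo, which makes hypochlorous acid from hydrogen peroxide and chloride, showed the pattern of Ctsg at a smaller size. Its FI-Delta ratios over 72 h were 0.31, -0.03 and 0.16, on both sides of 0, with a fitted change of 0.09 ± 0.09 (95% interval -0.12 to 0.29, adjusted p = 0.692, limma). In Y577F cells they were -0.75 and -0.28, and the fitted change was -0.54 ± 0.09 (adjusted p = 0.0013). Between the lines Mpo read -0.71, -0.58 and -0.24 at 0 h and -1.44 and -1.04 at 72 h, lower in Y577F on all 5 arrays and without overlap of the times. The fitted differences were -0.59 ± 0.08 at 0 h (adjusted p = 0.004), and -1.22 ± 0.09 at 72 h, 2.32-fold (adjusted p = 4.18e-06). Without the first 0 h array the 0 h difference was not called (-0.62, adjusted p = 0.0668), and neither it (adjusted p = 0.144) nor the Y577F fall (adjusted p = 0.0585) was called from the direct arrays alone (fitted without a dye term). The replicate block also ended both calls (-0.50, adjusted p = 0.624 at 0 h, and -0.54, adjusted p = 0.0773 in Y577F cells).

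Ctsc, the activator, rose in Y577F cells, where the proteases it activates fell. Over 72 h it read 0.26, 0.24 and 0.26 in FI-Delta cells and 1.14 and 1.03 in Y577F cells, above 0 on all 5 arrays and without overlap between the lines. It rose by 0.99 ± 0.09 in Y577F cells, 1.98-fold (adjusted p = 2.14e-05, limma), and by 0.36 ± 0.10 in FI-Delta cells, 1.29-fold (adjusted p = 0.0398). The fitted FI-Delta value lies above all 3 direct arrays, and the call was lost (adjusted p from 0.0533 to 0.116) on leaving out any array but the first FI-Delta time array or the third 0 h array. The change was 0.25 with adjusted p = 0.272 from the direct arrays alone (fitted without a dye term) and 0.35 with adjusted p = 0.235 under the replicate block. Y577F over FI-Delta read 0.29, 0.26 and 0.44 at 0 h, with a fitted difference of 0.27 ± 0.08 that did not pass (adjusted p = 0.191). At 72 h it read 0.84 and 0.75, and the difference was 0.89 ± 0.09, 1.86-fold higher in Y577F (adjusted p = 6.01e-05).

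Serpinb1a, the inhibitor, had the largest difference between the lines in its 72 h change. Its ratios over 72 h were 0.57, 0.39 and 0.50 in FI-Delta cells and -1.09 and -1.50 in Y577F cells, so the lines moved in opposite directions on every array. It rose by 0.63 ± 0.09 in FI-Delta cells (adjusted p = 0.0013, limma) and changed by -1.37 ± 0.09 in Y577F cells, 2.58-fold lower (adjusted p = 1.64e-06). At 0 h Serpinb1a was not lower in Y577F, unlike the proteases: the ratios were 0.39, 0.29 and 0.12, and the difference of 0.26 ± 0.08 did not pass (adjusted p = 0.184). At 72 h it read -1.65 and -1.98, and the fitted difference was -1.74 ± 0.09, 3.34-fold lower in Y577F (adjusted p = 2.71e-07). The rise in FI-Delta cells was not called from the direct arrays alone without a dye term (0.49, adjusted p = 0.0707) or under the replicate block (0.56, adjusted p = 0.0942).

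Srgn, the carrier, fell in both lines. It read -0.15, -0.78 and -0.31 over 72 h in FI-Delta cells and -0.90 and -0.79 in Y577F cells, below 0 on all 5 arrays. The fitted changes were -0.54 ± 0.11 in FI-Delta cells (adjusted p = 0.0131, limma) and -0.72 ± 0.11 in Y577F cells (adjusted p = 0.000801). The FI-Delta fall was not called without the second FI-Delta time array (-0.45, adjusted p = 0.0917), which holds the lowest ratio, from the direct arrays alone without a dye term (-0.39, adjusted p = 0.116), or under the replicate block (-0.54, adjusted p = 0.113). Y577F over FI-Delta was 0.17, 0.44 and 0.03 at 0 h and 0.24 at 72 h on both arrays. Neither difference passed: 0.29 ± 0.10 at 0 h (95% interval 0.07 to 0.50, adjusted p = 0.248) and 0.11 ± 0.11 at 72 h (95% interval -0.13 to 0.35, adjusted p = 0.602).

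**Figure D2:**
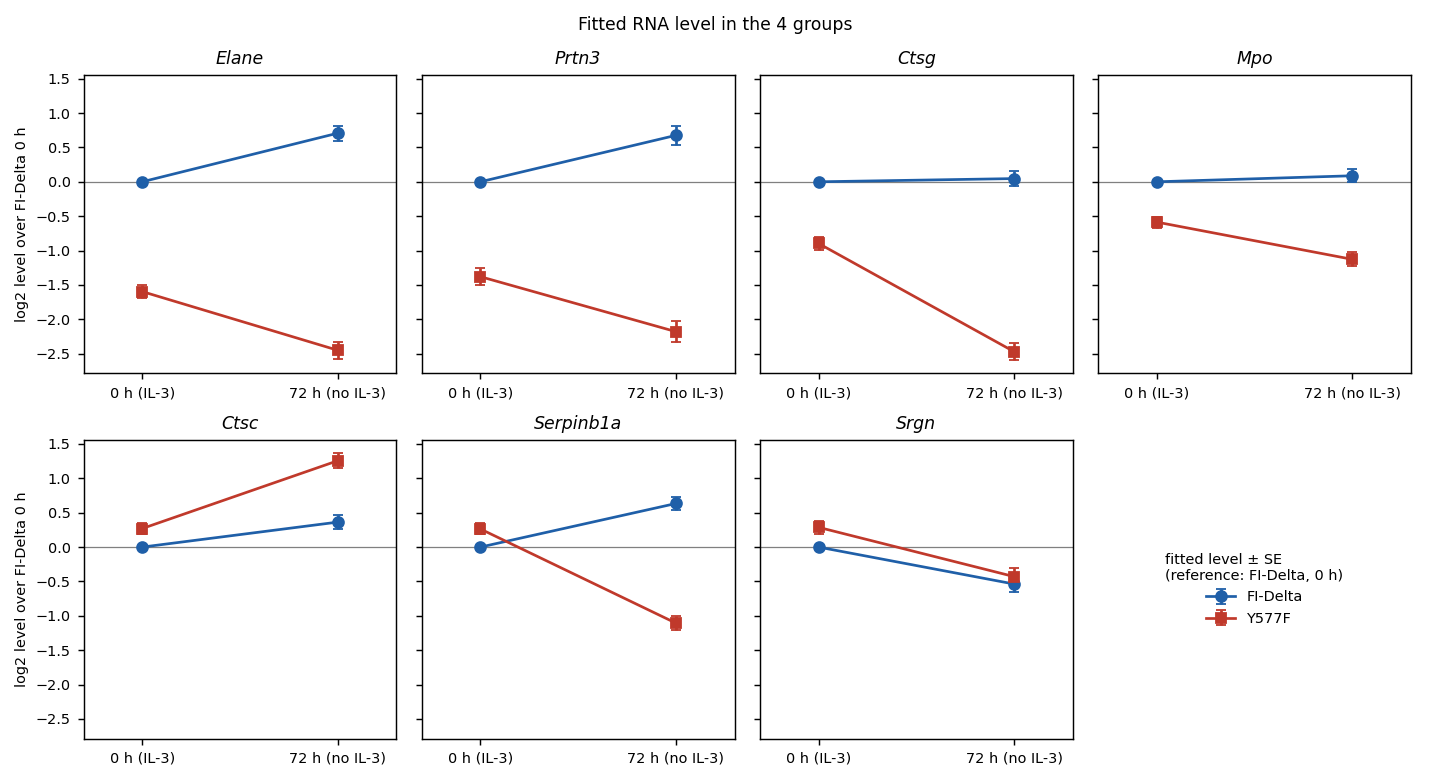
Fitted log2 level (vertical axis, SE bars) of each gene in the 4 RNA groups relative to FI-Delta cells at 0 h, which is set to 0, with FI-Delta in blue and Y577F in red. Elane in Y577F cells goes from -1.60 at 0 h to -2.45 at 72 h, Ctsc rises in both lines, and the lines of Serpinb1a cross.

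Placed in order of level, Elane and Prtn3 were highest in FI-Delta cells at 72 h, then FI-Delta at 0 h, Y577F at 0 h and Y577F at 72 h, and every step between neighbours was called. Ctsg and Mpo had the same order, but FI-Delta at 72 h and at 0 h did not differ beyond their error. From the highest to the lowest group the change was -3.16 for Elane, -2.86 for Prtn3, -2.52 for Ctsg and -1.22 for Mpo. Ctsc was highest in Y577F cells at 72 h, 1.26 ± 0.11 above FI-Delta at 0 h (adjusted p = 1.28e-05, limma), and the only called step between neighbours was that from FI-Delta to Y577F cells at 72 h. Serpinb1a was highest in FI-Delta cells at 72 h, with Y577F and FI-Delta at 0 h next, and lowest in Y577F at 72 h, 1.11 ± 0.10 under FI-Delta at 0 h (adjusted p = 2.67e-05). Its step from FI-Delta at 72 h to Y577F at 0 h (0.37 ± 0.10, adjusted p = 0.036) lost its call under 12 of 17 alternatives, 8 of them the leaving out of 1 array. Srgn ran from Y577F at 0 h through FI-Delta at 0 h and Y577F at 72 h to FI-Delta at 72 h, and the only step called, between FI-Delta at 0 h and Y577F at 72 h (0.43 ± 0.13, adjusted p = 0.0463), was lost under 10 of 17 alternatives, 7 of them the leaving out of 1 array. No array set Y577F at 72 h against FI-Delta at 0 h, or Y577F at 0 h against FI-Delta at 72 h, so those steps rest on sums of other arrays. Over all features the first of these pairs had 12.9% called (7.30% higher and 5.62% lower in Y577F) and the second 10.5% (4.54% higher and the rest lower).

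The difference between the lines in the 72 h change itself was called for 6 of the 7 genes (9.24% of all features, 4.33% higher and 4.91% lower). It was -2.00 ± 0.10 for Serpinb1a (Y577F minus FI-Delta, adjusted p = 2.92e-06, limma), the twelfth by size of all features. For the proteases it was -1.62 ± 0.12 for Ctsg, -1.56 ± 0.12 for Elane and -1.48 ± 0.15 for Prtn3. Ctsg thus differed between the lines about as much as Elane, although of the proteases only Elane and Prtn3 rose in FI-Delta cells. Mpo differed by -0.63 ± 0.10 (adjusted p = 0.00299), and Ctsc by 0.62 ± 0.11 in the other direction (adjusted p = 0.00381). For Srgn the difference was -0.18 ± 0.13 and did not pass (95% interval -0.46 to 0.10, adjusted p = 0.433). Mpo lost its call when only the direct arrays entered, without a dye term (-0.67, adjusted p = 0.228), and under the replicate block (-0.72, adjusted p = 0.0981). The block also ended the call of Ctsc (0.63, adjusted p = 0.0748).

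**Figure D3:**
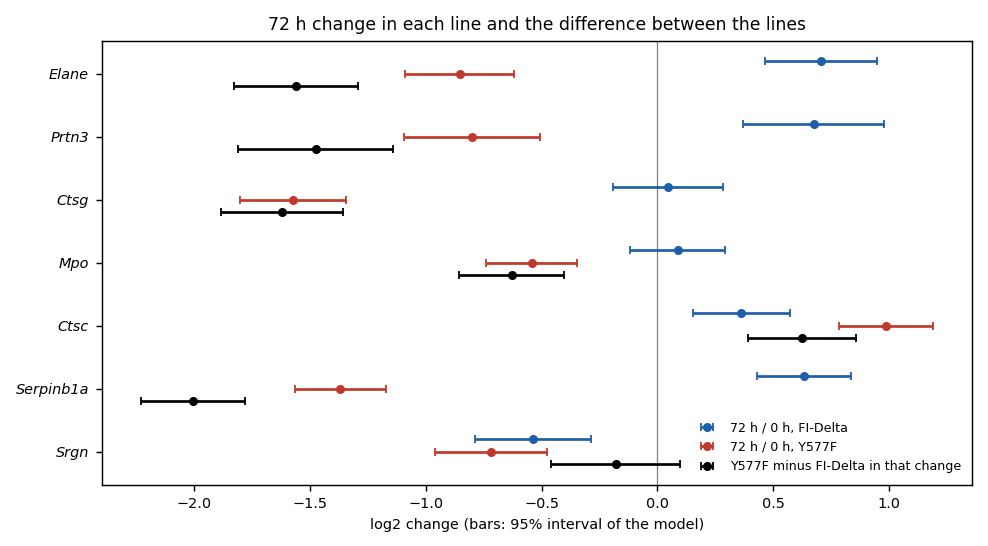
Fitted 72 h over 0 h change of each gene in FI-Delta cells (blue) and Y577F cells (red), and the difference between them (black), on the log2 axis with 95% intervals of the model. Serpinb1a has the largest difference, -2.00, and the interval of Srgn, from -0.46 to 0.10, crosses 0.

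The arrays can be set against each other, because they close 2 loops through the 4 groups. With culture numbers read in the order of the titles, the first loop uses the 4 arrays of cultures 1 (FI-Delta) and 3 (Y577F), the second the 5 arrays of cultures 2 and 4. On arrays with Y577F in Cy5 the channel labels give those numbers to the other line, so the reading is not settled. From FI-Delta at 0 h to Y577F at 72 h, Elane summed to -2.33 by way of FI-Delta at 72 h and to -2.54 by way of Y577F at 0 h in the first loop. In the second it summed to -2.34 and -2.42, so 4 routes over different arrays lay within 0.21 of each other. Mpo closed less well, with -0.88 against -1.46 in the first loop and -1.30 against -0.52 in the second. Serpinb1a had -1.49 against -0.71 in the first and -1.16 against -1.37 in the second. The median gap of the 7 genes was 0.566 and 0.411 in the loops, beside 0.294 and 0.3 over all features, whose 90th percentiles were 0.78 and 0.775. The gap, the first route minus the second, had opposite signs in the loops for Prtn3 (0.57 and -0.41), Ctsg (0.30 and -0.68), Mpo and Serpinb1a. It had the same sign for Elane, for Srgn (0.65 and 0.53) and for Ctsc (-0.43 and -0.38). What causes the gaps was not tested. The model carries a dye term, and the lowest adjusted p of that term among the 7 genes was 0.137, for Mpo. All direct arrays of a comparison shared a sign for 7 of the 7 genes in the Y577F time change (60.8% of features), at 0 h (29.0%) and at 72 h (59.6%), and for 6 of 7 in the FI-Delta time change (35.4%), Mpo being the exception.

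Likeness of pattern was measured as the uncentred correlation of log2 ratios over the 10 arrays, a description that does not depend on how an array is turned. These arrays share RNA extracts, so the values carry no test. Elane and Prtn3 reached 0.986, Ctsg and Mpo 0.962, and any pair among Elane, Prtn3, Ctsg and Mpo at least 0.917. Serpinb1a was nearest to Ctsg, at 0.842. Ctsc was opposite to the proteases, from -0.885 with Ctsg to -0.667 with Prtn3. Srgn was like none of the other 6, its values running from -0.494 with Ctsc to 0.184 with Serpinb1a.

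**Figure D4:**
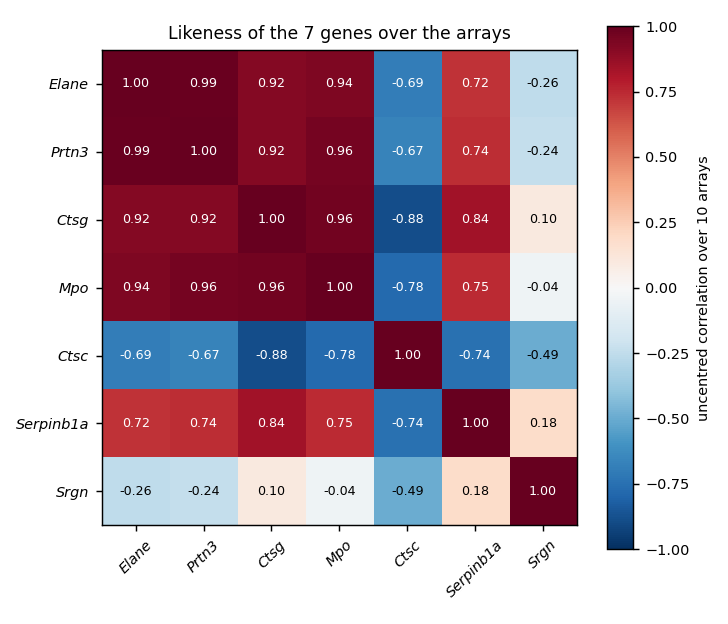
Uncentred correlation of the 7 genes over the 10 arrays, from blue (-1) to red (1), with the value in each square. Elane, Prtn3, Ctsg and Mpo form a block of 0.92 and above, Ctsc is negative with all of the other 6 genes, and Srgn is near 0 with Ctsg and Mpo.

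Of the 15096 other features with a symbol, Prtn3 was the one most like Elane, followed by Ms4a3, Pglyrp1 (a bactericidal granule protein), Lta4h (leukotriene A4 hydrolase) and Fcnb (ficolin B). For Prtn3 they were Ms4a3 (0.991), Elane, Pglyrp1, Rasgrp2 and Lta4h. Ms4a3 rose by 0.71 in FI-Delta cells and stood at -1.11 at 0 h and -2.26 at 72 h in Y577F over FI-Delta. Ctsg was most like Hdc (histidine decarboxylase, 0.992), Prss57 (another primary granule serine protease, 0.974), Agpat5, Cdk1 and Stmn1. Elane and Prtn3 came only at places 54 and 55 for Ctsg. In turn Ctsg came at place 36 for Elane and 42 for Prtn3, so a likeness near 0.92 was not particular to these genes. Mpo was most like Hdc (0.975), Rasgrp2, Agpat5, Ctsg and Prtn3. Ctsc was most like Npc2, a lysosomal cholesterol carrier (0.990), F2, Rnf149, Irf5 and Atp6v0a1, a subunit of the pump that acidifies lysosomes. Serpinb1a was most like Izumo1 (0.979), Smap1, Plk4 (a kinase of centriole copying), Med30 and Kif18a (a mitotic kinesin). Srgn was most like Tfcp2 (0.957), Sapcd1, Myt1l, Igfbp7 and Lat, and the nearest of the other 6 genes, Serpinb1a, came at place 5036.

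Other proteins listed for the primary granule did not share the pattern as a group. The list is mixed: it holds general lysosomal proteins (Man2b1, Gusb, Hexa, Fuca1, Arsa and Cd63) and eosinophil granule proteins (Epx, Prg2 and Prg3). Of 12 measured, limma called 8 higher and 2 lower (1 without either Y577F time array) over 72 h in Y577F cells. Their median change was 0.652 beside 0.00725 over all features, of which 9.28% were called higher and 8.75% lower. Among the 8 were Man2b1, Gusb, Hexa, Fuca1, Cd63 and Prg3. Lyz1, a lysozyme, rose by 1.19 ± 0.17 and the lysosomal mannosidase Man2b1 by 0.75 ± 0.12. Prss57, the protease named above, had the direction of Elane, Prtn3, Ctsg and Mpo in 2 comparisons. It changed by -0.89 ± 0.10 in Y577F cells and stood at -1.35 ± 0.10 in Y577F over FI-Delta at 72 h (adjusted p = 6.61e-06, limma). At 0 h its difference of -0.27 ± 0.09 did not pass (adjusted p = 0.255), where those of Elane, Prtn3, Ctsg and Mpo were called. Of 12 other granule proteases that Ctsc is known to activate, or that belong to the same families, 2 fell in FI-Delta cells (2.97% of all features). They were Gzmb (granzyme B, -2.67 ± 0.12) and Mcpt8 (-0.83 ± 0.12). Gzmb was 2.79 ± 0.12 higher in Y577F than in FI-Delta cells at 72 h, the opposite direction to Elane. At 0 h it was 0.86 ± 0.11 higher (adjusted p = 0.00229, limma), a call lost without the first 0 h array. Over 72 h in Y577F cells Gzmb changed by -0.74 ± 0.12, the direction of Elane there. In that comparison 2 of the 12 fell and 1 rose, the rise being lost without the first Y577F array (8.75% of all features fell and 9.28% rose).

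Ctsc rose together with some other lysosomal cathepsins. Of 12 measured, 5 rose over 72 h in Y577F cells (9.28% of all features rose) and the other 7 did not pass. Ctss, a cathepsin of antigen-presenting cells, rose by 3.14 ± 0.09, Ctsl by 1.64 ± 0.12 and Ctsb by 1.49 ± 0.14. At 72 h 4 of the 12 were higher in Y577F than in FI-Delta cells, beside 6.44% of all features. Among the 4 were Ctss (2.22 ± 0.09) and Ctsa (1.16 ± 0.11), and Ctsc at 0.89 lay under both. The median of the 12 was 0.115 there, beside 0.00727 over all features, and Ctsd, the major aspartic cathepsin, was at -0.11 ± 0.13.

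Of 11 other protease inhibitors, 2 were higher in Y577F at 72 h (1 without the first 72 h array), 1 was lower and 8 did not pass. Over all features 6.44% were called higher there and 6.45% lower. Cstb (cystatin B, which inhibits lysosomal cathepsins) had the direction of Ctsc: it rose by 0.75 ± 0.10 in FI-Delta and 1.36 ± 0.09 in Y577F cells. At 72 h it was 0.88 ± 0.09 higher in Y577F (adjusted p = 6.23e-05), where Serpinb1a stood at -1.74. Slpi, an inhibitor of elastase and cathepsin G, had the direction of Serpinb1a: it rose by 0.41 ± 0.08 in FI-Delta cells, was at -0.34 ± 0.08 in Y577F over FI-Delta at 72 h (adjusted p = 0.0165, limma) and differed by -0.43 ± 0.09 between the lines in its 72 h change. Its call at 72 h was lost without either 72 h array, that in FI-Delta cells without the third FI-Delta array, and that of the difference in change without the first 0 h or the second 72 h array. Enzymes that build the sugar chains of Srgn went both ways. Of 19 measured, 3 were higher and 3 lower in Y577F at 72 h (12.9% of all features were called) with a median of 0.0164, and leaving out the second 72 h array left a count of 1 higher. Of those called, the chondroitin sulfotransferase Chst12 stood at -0.82 ± 0.08 and the heparan sulfotransferase Ndst2 at 0.82 ± 0.09. Heme synthesis and the folding helpers of Mpo gave no call in that comparison among 11 genes (limma, 1 at an unadjusted p under 0.05).

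Genes of protease sorting and release, and genes mutated in congenital neutropenia, rose in part in both lines. Of 18 measured, 8 rose and 1 fell in FI-Delta cells, beside 5.19% and 2.97% of all features. The 8 were 4 to 5 without the second or the third FI-Delta, the first Y577F, the first 0 h or either 72 h array, and the fall was lost without the second or the third FI-Delta array. In Y577F cells 8 rose, or 4 to 5 without either Y577F time array, and 3 fell, whichever array was left out. Over all features 9.28% rose there and 8.75% fell. Hax1, a mitochondrial protein mutated in a congenital neutropenia, was among the 3 genes of the list that fell, at -0.80 ± 0.14. Lyst, which controls the size of lysosomes and granules, rose by 1.02 ± 0.11 in FI-Delta and 0.88 ± 0.11 in Y577F cells. The release factor Rab27a was lower in Y577F at 72 h, at -0.93 ± 0.12 (adjusted p = 0.000335). The list counted 5 lower in that comparison, or 3 without the first 72 h array, beside 6.45% of all features called lower.

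The transcription factors listed, not all of them known regulators of primary granule genes, did not move in 1 direction. Myb changed by -1.12 ± 0.09 in Y577F cells over 72 h (adjusted p = 7.31e-06) and by -0.15 ± 0.10, not passing, in FI-Delta cells. The difference between the lines in that change was -0.97 ± 0.11 (adjusted p = 0.000223), the direction of Elane, Prtn3, Ctsg and Mpo, but Myb at 0 h was at 0.08 ± 0.08 (adjusted p = 0.764), where those 4 genes were lower in Y577F. Cebpa fell in both lines, with -0.86 ± 0.12 in FI-Delta and -0.51 ± 0.12 in Y577F cells. Irf8 and Cebpb, which are known for their part in monocyte and macrophage development, were higher in Y577F at 72 h, by 0.87 ± 0.08 and 0.71 ± 0.09, as was Egr1, by 1.78 ± 0.10. Of the 14 factors measured, limma called none between the lines at 0 h, where 1.42% of all features were called. There 3 had an unadjusted p under 0.05, and Cebpg was called when the third FI-Delta time array was left out. In Y577F cells over 72 h 5 rose and 3 fell (1 without the first Y577F array), beside 9.28% and 8.75% of all features. At 72 h 4 were higher in Y577F and 2 lower (1 without either 72 h array), beside 6.44% and 6.45%.

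Markers of later neutrophil granules and of monocytes and macrophages moved with these changes, and fewer of those of other blood cells did. The part of any of them in the changes was not tested. Markers of the secondary and tertiary granules, which neutrophils make later, rose in FI-Delta cells in 12 of 14 cases, from 0.87 for Hp (haptoglobin) to 2.45 for Ltf (lactoferrin). The other 2, Cd177 at 0.15 and Cybb at 0.17, did not pass. These markers were lower in Y577F in 9 of 14 cases at 0 h and in 11 of 14 at 72 h, with -3.94 ± 0.15 for Camp (cathelicidin). At 72 h 1 of the 14 was called higher in Y577F (6.44% of all features), and the largest value of the list was 0.74. Over all features 0.484% were called lower at 0 h and 6.45% at 72 h, and 5.19% rose in FI-Delta cells. In Y577F cells over 72 h, where 6 of the 7 primary granule genes and partners fell, 3 of these markers rose, 2 fell (1 without the first Y577F array) and 9 did not pass. Monocyte and macrophage markers rose in Y577F cells in 13 of 14 cases, by 3.00 ± 0.09 for Clec7a, and were higher in Y577F at 72 h in 13 of 14, the other being Itgam at -1.15 ± 0.10. In FI-Delta cells 11 of the 14 rose, or 7 to 10 on leaving out any 1 array, with 7 without the third FI-Delta array. At 0 h 4 of the 14 were higher in Y577F and 1 lower, beside 0.934% and 0.484% of all features. Without the first 0 h array 0 of them were called there. In Y577F cells over 72 h, and between the lines at 72 h, Ctsc was called in the direction of most of this list and Elane, Prtn3, Ctsg and Mpo in the opposite one. In FI-Delta cells Elane and Prtn3 rose as Ctsc and most of the list did. Mast cell and basophil markers differed among themselves at 72 h, with Cpa3 2.29 ± 0.10 and Fcer1a 2.32 ± 0.20 higher in Y577F and Hdc lower, at -1.25 ± 0.08. Of the 11 such markers measured, 3 were higher (6.44% of all features), 1 lower (6.45%) and 7 did not pass. Of 8 lymphoid markers 1, Cd3d, was called at 72 h, lower in Y577F (adjusted p = 0.00174, limma). That is near the share of all features called there, 12.9%. Of 8 erythroid and megakaryocyte markers 2 were higher, among them Itga2b by 1.75 ± 0.10, and 1 was lower. Without the second 72 h array 1 was higher, and without either 72 h array 0 were lower.

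**Figure D5:**
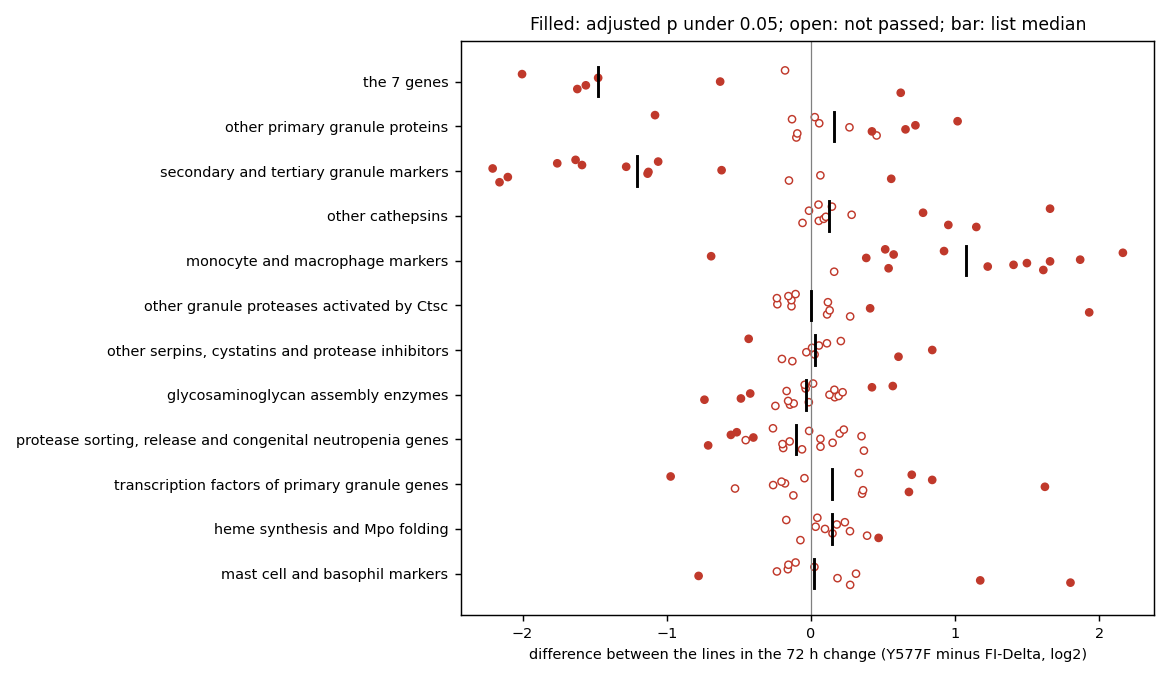
Difference between the lines in the 72 h change (Y577F minus FI-Delta, log2, horizontal axis) for the 7 genes and 11 other lists, with 1 point per gene, filled where limma called it, and a bar at each list's median. The medians are -1.48 for the 7 genes, -1.21 for secondary and tertiary granule markers and 1.08 for monocyte and macrophage markers.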

How the data were processed

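The deposited values are log2 ratios of two-colour arrays, 1 column per array, which the authors made with limma per the submitters' processing notes. Not given in the sources used here were its version, background correction and normalization, and their effect on the values is unknown. RNA was labelled with Cy5 and Cy3 per the labels' protocols. Spot intensities were not analysed here, so signal over background and saturation could not be weighed. Of 23040 spots, 1243 control spots were left out. Probes were named through the platform annotation (16651 with 1 symbol, 137 with several and 5009 with none), and probes of a symbol were averaged.

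The model (limma 3.58.1 in R 4.3.3, lmFit and eBayes) estimated the 4 RNA groups through 3 coefficients, beside a dye effect per feature, with 5 residual and 6.34 prior degrees of freedom. The named genes are the 7 genes, the 5 features most like each over the arrays, and up to 3 called genes for each list and comparison. Some further genes of those lists (Ctsd, Prss57, Rab27a and Myb at 0 h, for example) were picked with their values known. The members and the 13 other lists were chosen with earlier results of these data known. No whole-list test was made. The fit was tested on simulated data. P-values measure the spread between these hybridisations, of which some share an RNA extract. Precision is limited by how few arrays there are. Alternatives changed the dye term, the dye swap, the arrays used, their weights, centring and scale, the probes and the RNA extracts, or left out each array in turn.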

Additional observations from a re-analysis of the deposited data

Results flagged for a closer look

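The 72 h change differed between the lines for 6 of the 7 genes by a test of the difference itself (the limma model's contrast of Y577F minus FI-Delta, log2 scale). The values were -1.56 ± 0.12 for Elane (adjusted p = 2.43e-05), -1.48 ± 0.15 for Prtn3 (adjusted p = 0.000166) and -1.62 ± 0.12 for Ctsg (adjusted p = 1.79e-05). Mpo had -0.63 ± 0.10 (adjusted p = 0.00299), Ctsc 0.62 ± 0.11 (adjusted p = 0.00381) and Serpinb1a -2.00 ± 0.10 (adjusted p = 2.92e-06). Elane, Prtn3 and Serpinb1a had all FI-Delta arrays above 0 and both Y577F arrays below 0, whereas Ctsc was above 0 on all of them.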

How the results depend on the processing

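No alternative reversed a called change of the 7 genes. Counts of the 7 genes called stayed at 6 for the lines at 72 h, at 6 to 7 for the Y577F time change and at 4 to 6 for the difference between the lines in that change. The FI-Delta time change was the least stable: 5 genes were called, but 2 with a replicate block (a coefficient per RNA extract, without a dye term), 1 from the direct arrays alone (also without a dye term, here and below), 2 with arrays scaled to the same spread, and 3 to 5 on leaving out 1 array (3 without the second FI-Delta time array). For the lines at 0 h the replicate block gave 2 in place of 4, losing Ctsg (-0.84, adjusted p = 0.124, limma) and Mpo (-0.50, adjusted p = 0.624), and leaving out 1 array gave 3 to 4. The block also ended the FI-Delta calls of Ctsc (adjusted p = 0.235), Serpinb1a (0.0942) and Srgn (0.113), the Y577F call of Mpo (0.0773), and the difference between the lines for Mpo (0.0981) and Ctsc (0.0748). The labels' culture numbers pair too few samples to check the pairing. The 2 0 h arrays that share a Y577F extract by the titles correlated at 0.357 and the 2 that share an FI-Delta extract at 0.0871.

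Counts over all features moved more. For the FI-Delta time change 1652 were called, but 544 with the block, 752 from the direct arrays, 887 without the third FI-Delta array and 3786 with array weights. The Y577F time change had 3649, or 1721 with the block, 1986 direct and 1949 without the first Y577F array. The lines at 0 h had 287, or 22 with the block, 103 direct, 445 with weights, 57, 151 and 164 without the first, the second and the third 0 h array and 171 without the first 72 h array. At 72 h there were 2609, or 1060 with the block, 1344 direct, 5537 with weights and 1421 and 1403 without the first and second 72 h array. The difference in change had 1871, or 440 with the block, 291 direct, 951 without the first 0 h and 911 without the second 72 h array. The group pairs with no direct array had 2616 (1053 with the block, 5135 with weights) and 2133 (692 and 3414). The cause was not tested. With 2 to 3 direct arrays a comparison, differences at 0 h of 0.26 (Serpinb1a), 0.27 (Ctsc) and 0.29 (Srgn) did not pass.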

Other observations

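In RefSeq's gene order Prtn3 and Elane are adjacent. Over all features the share called ran from 1.42% between the lines at 0 h to 18.0% in the Y577F time change. The 6 nearest neighbours measured (Plppr3, Ptbp1, Misp, Kiss1r, Arid3a and Grin3b) gave no call by limma in the 5 comparisons, but are too few to read against those shares. Of their 30 values, 7 had an unadjusted p under 0.05. At 0 h Plppr3 (-0.26 ± 0.11), Ptbp1 (-0.27 ± 0.07), Arid3a (-0.37 ± 0.11) and Grin3b (-0.25 ± 0.07) were among those values, with the sign of Elane and Prtn3 but adjusted p from 0.123 to 0.386. Ptbp1, a splicing regulator, came closest to a call, with 0.27 ± 0.09 for the difference between the lines in the 72 h change (adjusted p = 0.0943), the sign opposite to Elane.

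Next to Ctsg, Mcpt8, a basophil protease, was called in both time changes, at -0.83 ± 0.12 in FI-Delta cells (adjusted p = 0.00123, limma) and -1.06 ± 0.12 in Y577F cells (adjusted p = 6.47e-05). The difference between the lines at 72 h did not pass for Mcpt8 (-0.0041 ± 0.12, adjusted p = 0.987), where Ctsg stood at -2.52 ± 0.10. The other neighbours of Ctsg measured (Mcpt4, Mcpt9, Gzme, Gzmd and Gzmg) gave no call by limma in the 5 comparisons, and 0 of their 25 values had an unadjusted p under 0.05. They too are too few to read against the shares of all features called, 1.42% to 18.0%.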
